A study of Homo sapiens with 6 samples.

Results

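HIGD1A, a mitochondrial protein gene named for its induction by hypoxia, was examined together with its relative HIGD2A and 8 genes of the cellular response to low oxygen: HIF1A, EPAS1, EGLN1, VEGFA, CA9, BNIP3, NDRG1 and ADM. They are 10 of the 58302 genes in the deposited table, matched by gene symbol, and all 10 had enough counts to be tested. HIGD1A was chosen by its fold change and p-value between the groups in these same libraries, so its difference is given as a description. The others were added for their known place in the hypoxia response, with results of this comparison already known. The cells were of the line Hs766T, an established human cell line of pancreatic ductal adenocarcinoma, as the cell line label spells it, while the sample titles read HS7666T. RNA sequencing compared 3 libraries of cells made to overexpress DDX18, a nucleolar DEAD-box RNA helicase (genotype ex-DDX18), with 3 libraries of control cells, whose sample titles read plvx and whose genotype is given as WT. Neither the oxygen level nor the time in culture is given in the sources used here, and nothing states that libraries of a group came from separate cultures. P-values therefore measure only the spread between these libraries, which may be technical.

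Cells sense oxygen through the hypoxia-inducible factors. Their alpha subunits, encoded by HIF1A and EPAS1, are made all the time, and in the presence of oxygen prolyl hydroxylases such as EGLN1 mark them for VHL-dependent destruction by the proteasome. When oxygen is scarce the alpha subunits persist, pair with ARNT and switch on genes for glucose use, angiogenesis, pH control and mitochondrial quality control. Much of this control acts on protein, which RNA sequencing does not measure. HIGD1A and HIGD2A are small proteins of the inner mitochondrial membrane that associate with the respiratory chain, in particular with cytochrome c oxidase. CA9, BNIP3, NDRG1, ADM and VEGFA are among the best known transcripts raised by hypoxia.

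The hypoxia-inducible factors bind a short core, ACGTG or GCGTG, so promoter windows were searched for these letters on both strands. Windows of 300 bases, with 250 before and 50 after the annotated start, were taken from RefSeq on GRCh38.p14. The search covered 8 of the 10 genes, leaving out VEGFA and NDRG1, and each of the 8 had at least 1 window with a match. Of 14871 windows of genes tested here, 61.1% held a match too, and 48.4% of all 35116 windows in the table did, so a match is common. These shares count windows while the 8 are counted by gene, and whether the genes differ from the rest was not tested. The sequences shown are those of HIGD1A and EPAS1 because their levels separated the groups, and those of CA9 and BNIP3 because both are textbook hypoxia targets. Each reads 5′ to 3′ along the gene, with the core in capitals, as ACGTG or GCGTG on the printed strand and as CACGT or CACGC where it lies on the other.
HIGD1A (chr3:42804441-42804740, minus strand): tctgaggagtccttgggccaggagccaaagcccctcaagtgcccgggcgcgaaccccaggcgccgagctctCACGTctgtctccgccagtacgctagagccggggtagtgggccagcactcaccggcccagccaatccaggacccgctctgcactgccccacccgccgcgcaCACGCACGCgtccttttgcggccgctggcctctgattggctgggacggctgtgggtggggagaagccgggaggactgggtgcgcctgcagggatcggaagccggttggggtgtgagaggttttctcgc
EPAS1 (chr2:46297157-46297456, plus strand): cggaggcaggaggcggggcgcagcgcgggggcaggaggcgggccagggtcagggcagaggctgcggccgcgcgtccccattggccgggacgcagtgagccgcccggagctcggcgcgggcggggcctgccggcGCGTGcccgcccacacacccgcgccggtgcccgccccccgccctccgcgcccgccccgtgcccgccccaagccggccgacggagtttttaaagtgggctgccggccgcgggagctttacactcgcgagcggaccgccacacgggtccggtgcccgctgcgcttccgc
CA9 (chr9:35673678-35673977, plus strand): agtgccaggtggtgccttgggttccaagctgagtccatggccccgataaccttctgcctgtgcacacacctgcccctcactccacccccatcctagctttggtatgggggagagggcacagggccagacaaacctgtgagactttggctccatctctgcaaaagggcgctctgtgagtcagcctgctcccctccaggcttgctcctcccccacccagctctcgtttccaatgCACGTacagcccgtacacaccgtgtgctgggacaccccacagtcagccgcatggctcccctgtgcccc
BNIP3 (chr10:131981874-131982173, minus strand): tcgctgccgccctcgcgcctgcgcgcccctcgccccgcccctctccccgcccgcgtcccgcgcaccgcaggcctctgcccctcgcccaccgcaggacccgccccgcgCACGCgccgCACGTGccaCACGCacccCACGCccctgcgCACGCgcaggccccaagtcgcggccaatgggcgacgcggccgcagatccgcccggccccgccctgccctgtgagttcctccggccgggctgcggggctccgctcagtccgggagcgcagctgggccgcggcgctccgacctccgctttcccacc

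In the HIGD1A window 3 cores were found, 1 at positions -179 to -175 from the start and a pair that share their middle base between -78 and -70. The BNIP3 window had 6 matches between -143 and -100, of which 2 are the same palindrome read from either strand. At least 5 matches occurred in 2.89% of the windows of genes tested. CA9 had its single core at -18 to -14, and EPAS1 at -117 to -113. HIGD2A had 2 matches, EGLN1 and ADM 1 each, and HIF1A 1 in the first of its 2 windows and 0 in the second. VEGFA and NDRG1 are named without a sequence. A match is a description of the letters and does not show binding.

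The libraries held 15911875 to 16207995 counts each. DDX18 itself averaged 187.1 ± 10.2 CPM (counts per 1000000 counts of the library, scaled by TMM) in the DDX18 libraries and 90.0 ± 7.98 CPM in the plvx libraries (SD, n = 3 each), in the direction of the labels. Among 7 markers of ductal epithelium KRT8 was highest, at 1689 to 2387 CPM with DDX18 and 1706 to 2194 CPM in plvx libraries. KRT19, usual in ductal cells, had 4 counts in DDX18 replicate 3 and 0 in the other 5 libraries. All 5 acinar markers were at 0. Of the endothelial markers PECAM1 and KDR were at 0, and the 5 summed to 5.62 to 6.53 CPM with DDX18 and 4.86 to 7.74 CPM in plvx libraries. The 5 fibroblast markers summed to 168 to 173 CPM with DDX18 and 162 to 173 CPM in plvx libraries, with COL1A2 at 0. Within this sum COL1A1 averaged 55.1 ± 3.17 CPM in DDX18 and 66.8 ± 4.39 CPM in plvx libraries (unadjusted p = 0.0128, edgeR adjusted p = 0.814), and PDGFRB 105.0 ± 2.27 CPM in DDX18 and 91.6 ± 4.15 CPM in plvx libraries (unadjusted p = 0.0225, adjusted p = 0.841), neither with overlapping groups. Their part in the results was not tested. The 5 leukocyte markers summed to 4.84 to 6.43 CPM with DDX18 and 4.25 to 5.85 CPM in plvx libraries, with CD3E and LYZ at 0.

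HIGD1A was lower in every DDX18 library. It had 438, 594 and 587 counts in DDX18 replicates 1, 2 and 3, against 1300, 1339 and 1398 counts in plvx replicates 1, 2 and 3. In CPM these were 27.2, 37.1 and 36.9 in the DDX18 libraries, against 83.8, 82.2 and 86.1 in the plvx libraries. The groups were far apart, with no library between 37.1 and 82.2 CPM. The DDX18 mean was 33.7 ± 5.67 CPM and the plvx mean 84.0 ± 1.94 CPM (SD, n = 3 each), a log2 fold change of -1.32 with a 95% interval of -1.61 to -1.02. In bulk RNA, fewer expressing cells and less RNA per cell cannot be told apart. The DDX18 libraries varied by 16.8% around their mean, with replicate 1 the lowest, where counting alone gives 4.3% at their mean count. The plvx libraries varied by 2.31%, where counting alone gives 2.73% at theirs.

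HIGD1A was 1 of 8 genes, 4 higher and 4 lower, that passed an adjusted p of 0.05 in the edgeR quasi-likelihood test over 15144 genes, which is 0.0528% of those tested (0.0264% in each direction). Groups that did not overlap, with DDX18 lower, were found in 5.71% of the genes tested. The call of HIGD1A is why it was chosen, and nothing is read from it here. Leaving out 1 library at a time kept the log2 fold change between -1.39 and -1.19, and the call in 1 of 6 fits, the fit without DDX18 replicate 1 (edgeR adjusted p = 0.011). The adjusted p was 0.0683 and 0.0576 without DDX18 replicate 2 or 3, 0.0609, 0.125 and 0.0781 without plvx replicate 1, 2 or 3, 0.1 with no expression filter and 0.146 with the replicate number as a block.

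The gene (ENSG00000181061) spans 42784298 to 42804531 on the minus strand of chromosome 3 (GRCh38). It has 19 pseudogenes in the table, to which HIGD1A reads could be assigned in error. Together these held 8, 0 and 5 counts in DDX18 replicates 1, 2 and 3, against 2, 3 and 0 counts in plvx replicates 1, 2 and 3. AC006059.2, a gene on the same strand that shares 337 exon bases with HIGD1A, had 1 count in DDX18 replicate 3 and 0 elsewhere, and AC099329.1, which shares 488, had 5 counts in plvx replicate 3 and 0 elsewhere. None of these pseudogene sums or overlapping genes had more than 8 counts in a library.

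**Figure D1:**
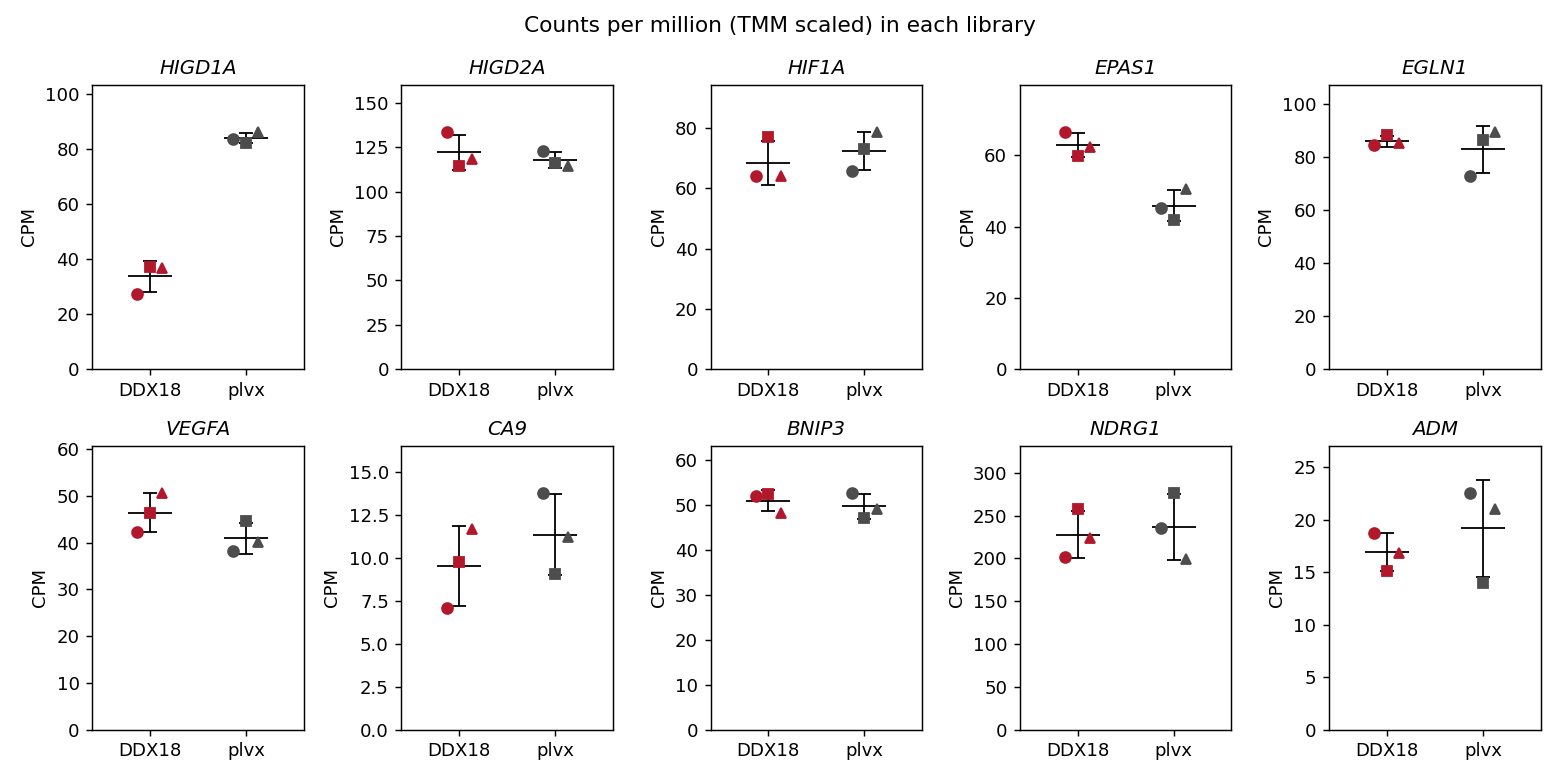
Each panel plots the level of a gene in CPM on an axis from 0, with the 3 DDX18 libraries in red on the left and the 3 plvx libraries in grey on the right (circle, square and triangle for replicates 1, 2 and 3). Horizontal bars are means and error bars SD. The groups are apart in HIGD1A, at 27.2 to 37.1 CPM in DDX18 and 82.2 to 86.1 CPM in plvx libraries, and in EPAS1, at 59.8 to 66.5 CPM in DDX18 and 41.9 to 50.7 CPM in plvx libraries, and overlap in the other 8 genes.

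HIGD2A, a HIG1-domain protein that takes part in assembling cytochrome c oxidase and respiratory supercomplexes, had overlapping groups. It measured 133.5, 114.4 and 118.3 CPM in DDX18 replicates 1, 2 and 3, against 123.0, 116.0 and 114.6 CPM in plvx replicates 1, 2 and 3. DDX18 replicate 1 was the highest library and the others lay close together. The log2 fold change was 0.05 with a 95% interval of -0.14 to 0.24 (edgeR adjusted p = 0.963). Per exon length, the ratio of HIGD1A to HIGD2A was 0.0811, 0.129 and 0.124 in the DDX18 libraries, against 0.272, 0.283 and 0.3 in the plvx libraries. HIGD2A (ENSG00000146066) spans 176388747 to 176389771 on the plus strand of chromosome 5. It shares 227 exon bases with NOP16, which lies on the other strand and had 1494 to 1572 counts with DDX18 and 1492 to 1559 counts in plvx libraries. It is not given whether the counting used strand, so reads of that stretch may not be separable.

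The remaining family members were hardly detected. HIGD1C had 0 counts in all 6 libraries, HIGD1B 0 to 6 and HIGD2B 0 to 2. Of 18 genes listed for the HIG1 family and cytochrome c oxidase, 15 could be tested and none passed (edgeR), where 0.0528% of all genes tested did. At an unadjusted p under 0.05 there were 2 (13.3%, against 5.69% of all genes tested). The list's median log2 fold change was -0.04, against 0.00 over all genes, with 6 members above 0 and 9 below. The 2 were MT-CO3, an oxidase subunit encoded in the mitochondrial genome (3912 ± 107 CPM in DDX18 and 4528 ± 249 CPM in plvx libraries, adjusted p = 0.828), and COX7C, a small nuclear-encoded subunit (274.0 ± 13.9 CPM in DDX18 and 307.4 ± 13.4 CPM in plvx libraries, adjusted p = 0.86). MT-CO1, the catalytic subunit, measured 4444 ± 373 CPM in DDX18 and 4924 ± 397 CPM in plvx libraries. COX5A measured 207.7 ± 16.8 CPM in DDX18 and 192.6 ± 2.08 CPM in plvx libraries.

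Of the oxygen-regulated alpha subunits, EPAS1, which encodes HIF-2α, had groups that did not overlap, and HIF1A had groups that did. The difference between their fold changes was not tested. EPAS1 measured 66.5, 59.8 and 62.3 CPM in DDX18 replicates 1, 2 and 3, against 45.2, 41.9 and 50.7 CPM in plvx replicates 1, 2 and 3. Every DDX18 library was above every plvx library. EPAS1 (ENSG00000116016) spans 46293667 to 46386703 on the plus strand of chromosome 2, and no other gene of the count table was found to overlap it by its GENCODE 29 position. The log2 fold change was 0.45 with a standard error of 0.0961, or 1.37-fold with a 95% interval of 1.17 to 1.60. EPAS1 did not pass the threshold over all genes (edgeR adjusted p = 0.542, unadjusted p = 0.00168). With DESeq2 the adjusted p was 0.0733. Groups that did not overlap, with DDX18 higher, were found in 5.83% of the genes tested.

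HIF1A, the broadly expressed alpha subunit, measured 64.1, 77.1 and 64.2 CPM in DDX18 replicates 1, 2 and 3, against 65.9, 73.0 and 78.7 CPM in plvx replicates 1, 2 and 3. These ranges overlapped, and the log2 fold change was -0.08 with a 95% interval of -0.33 to 0.16 (adjusted p = 0.958). HIF1A (ENSG00000100644) spans 61695513 to 61748259 on the plus strand of chromosome 14. Its antisense genes had next to no counts, 0 to 3 for HIF1A-AS1 and 0 to 1 for HIF1A-AS2. AL137129.1, on the same strand, shares 148 exon bases with HIF1A. That gene had 7 to 10 counts with DDX18 and 6 to 9 counts in plvx libraries. Per exon length, the ratio of EPAS1 to HIF1A was 0.732, 0.547 and 0.685 in the DDX18 libraries, against 0.483, 0.405 and 0.454 in the plvx libraries, so HIF1A was the more abundant transcript of the pair in every library.

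EGLN1, the main prolyl hydroxylase that marks the alpha subunits, measured 84.4, 88.2 and 85.1 CPM in DDX18 replicates 1, 2 and 3, against 72.8, 86.5 and 89.4 CPM in plvx replicates 1, 2 and 3. The narrow DDX18 range lay inside the wider plvx range, where replicate 1 was low. The log2 fold change was 0.05 with a 95% interval of -0.16 to 0.27 (adjusted p = 0.966). EGLN1 (ENSG00000135766) spans 231363751 to 231425044 on the minus strand of chromosome 1.

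Around these factors, 14 of 16 listed regulators could be tested and none passed (edgeR), where 0.0528% of all genes tested did. An unadjusted p under 0.05 was found in 1 (7.14%, against 5.69% of all genes tested). Fold changes were above 0 in 8 and below in 6, with a median log2 fold change of 0.01. ARNT2 and HIF3A, further members of the factor family, had at most 3 and 6 counts in a library. CITED2, a hypoxia-induced protein that competes with the alpha subunits for CREBBP and EP300, was the regulator with the smallest p. It measured 109.8 ± 5.63 CPM in DDX18 and 94.7 ± 5.72 CPM in plvx libraries (adjusted p = 0.841), and its groups did not overlap. EGLN2, another prolyl hydroxylase, measured 38.6 ± 11.5 CPM in DDX18 and 31.0 ± 5.25 CPM in plvx libraries. ARNT, the constant partner of the alpha subunits, measured 75.2 ± 2.60 CPM in DDX18 and 65.2 ± 14.9 CPM in plvx libraries. SIAH2, a ubiquitin ligase for prolyl hydroxylases, measured 64.2 ± 2.44 CPM in DDX18 and 60.7 ± 3.62 CPM in plvx libraries. The most counted were ELOB, a subunit of the VHL ligase, at 237.0 ± 13.7 CPM in DDX18 and 249.7 ± 21.2 CPM in plvx libraries, and CREBBP, a histone acetyltransferase and coactivator, at 125.5 ± 2.48 CPM in DDX18 and 126.7 ± 4.25 CPM in plvx libraries.

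HIGD1A apart, none of the 5 hypoxia-induced targets VEGFA, CA9, BNIP3, NDRG1 and ADM differed beyond its replicate spread. VEGFA, the growth factor of blood vessels, measured 42.2, 46.4 and 50.6 CPM in DDX18 replicates 1, 2 and 3, against 38.1, 44.5 and 40.1 CPM in plvx replicates 1, 2 and 3. CA9, a cell surface carbonic anhydrase that helps tumour cells export acid, was scarce. It measured 7.07, 9.80 and 11.7 CPM in DDX18 replicates 1, 2 and 3, against 13.8, 9.09 and 11.2 CPM in plvx replicates 1, 2 and 3, and both the lowest and the highest library were replicate 1 of their group. CA9 shares 643 exon bases with ARHGEF39 on the other strand, which had 344 to 449 counts with DDX18 and 327 to 408 counts in plvx libraries. CA9 itself had 114 to 186 counts with DDX18 and 148 to 214 counts in plvx libraries.

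BNIP3, a receptor that marks mitochondria for autophagy, was the steadiest of the targets. It measured 52.0, 52.5 and 48.2 CPM in DDX18 replicates 1, 2 and 3, against 52.6, 47.1 and 49.1 CPM in plvx replicates 1, 2 and 3. The 44 BNIP3 pseudogenes of the table held 132 to 173 counts with DDX18 and 139 to 160 counts in plvx libraries, nearly all of them on BNIP3P1. BNIP3 itself had 767 to 841 counts with DDX18 and 767 to 816 counts in plvx libraries. Some reads may be shared between them.

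NDRG1, a stress-induced protein linked to differentiation and metastasis, was the most counted of the 10 genes. It measured 202.0, 257.2 and 223.9 CPM in DDX18 replicates 1, 2 and 3, against 235.4, 276.3 and 199.0 CPM in plvx replicates 1, 2 and 3. Its spread was 12.2% in the DDX18 libraries, where counting alone gives 1.66%, and 16.3% in the plvx libraries, where counting alone gives 1.62%. ADM, the precursor of the vasodilator adrenomedullin, measured 18.7, 15.2 and 16.8 CPM in DDX18 replicates 1, 2 and 3, against 22.6, 13.9 and 21.1 CPM in plvx replicates 1, 2 and 3. Its plvx replicate 2 was below every DDX18 library, while the other plvx libraries were above them.

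The fold changes of these 5 targets had 95% intervals that all included no change: 0.961 to 1.34 for VEGFA, 0.585 to 1.20 for CA9, 0.898 to 1.17 for BNIP3, 0.774 to 1.19 for NDRG1 and 0.652 to 1.19 for ADM. Their adjusted p-values (edgeR) ran from 0.865 to 0.979. The data are compatible with changes anywhere within these bounds, which are not limits of detection. CA9 and ADM, with the fewest counts, had the widest intervals. Over the 10 genes, 5 fold changes were above 0 and 5 below, and the median was -0.01 on the log2 scale. The groups did not overlap in 2 of the 10, against 11.5% of all genes tested. The 2 were HIGD1A, which was chosen for its difference in these libraries, and EPAS1, so no excess is read from this count.

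**Figure D2:**
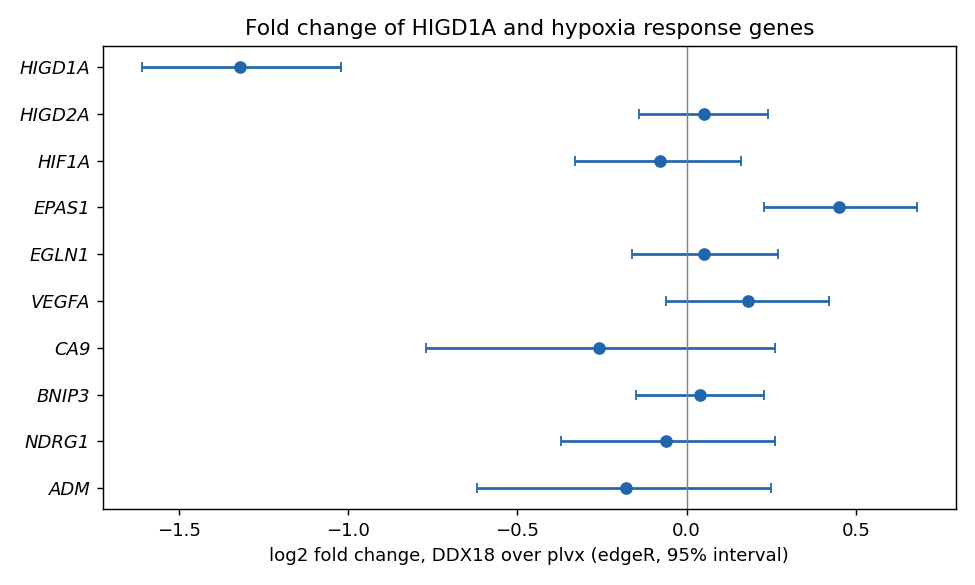
Points are log2 fold changes of DDX18 over plvx libraries (edgeR, 3 against 3) and bars their 95% intervals, with a grey line at no change. HIGD1A lies at -1.32 and EPAS1 at 0.45, and the intervals of the other 8 genes include 0.

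Among further known targets of the hypoxia-inducible factors, fixed as lists by function, none of 48 tested genes passed the threshold in either direction by edgeR, DESeq2 or limma-voom. By edgeR 0.0528% of all genes tested passed. Their fold changes divided 26 above 0 and 22 below, with a median log2 fold change of 0.02, against 0.00 over all genes tested, and 3 had an unadjusted p under 0.05 (6.25%, against 5.69%). The single values ran from -0.27 to 0.42.

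Of the targets of glucose use and lactate export, 13 of 18 tested genes had a fold change below 0, with a median log2 fold change of -0.10. The median level of this list, relative to the mean of the 6 libraries on the log2 scale, was -0.08, -0.06 and -0.01 in DDX18 replicates 1, 2 and 3, against 0.14, 0.01 and 0.01 in plvx replicates 1, 2 and 3. The groups did not overlap in this median, but their nearest libraries were at -0.01 and 0.01, and plvx replicate 1 lay furthest out. Of the 18 genes, 2 had groups that did not overlap, both with DDX18 lower, against 5.71% of all genes tested. Of the 7 related lists, the other one whose medians did not overlap was that of NDRG relatives and carbonic anhydrases. TPI1, triosephosphate isomerase, measured 1201 ± 29.4 CPM in DDX18 and 1348 ± 88.1 CPM in plvx libraries (adjusted p = 0.86). GPI, glucose-6-phosphate isomerase, measured 1130 ± 52.6 CPM in DDX18 and 1263 ± 61.2 CPM in plvx libraries (adjusted p = 0.86). GAPDH measured 9030 ± 1046 CPM in DDX18 and 10470 ± 861 CPM in plvx libraries, and ENO1, an enolase, 5674 ± 156 CPM in DDX18 and 6177 ± 594 CPM in plvx libraries. SLC2A1, the glucose transporter that hypoxia raises, had a fold change above 0, at 202.9 ± 32.9 CPM in DDX18 and 158.7 ± 44.0 CPM in plvx libraries (adjusted p = 0.862), with overlapping groups.

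Of the remaining targets, 21 of 30 tested genes had a fold change above 0, with a median log2 fold change of 0.07. BNIP3L, the close relative of BNIP3, measured 29.7 ± 1.20 CPM in DDX18 and 33.7 ± 1.33 CPM in plvx libraries (adjusted p = 0.86). ANGPTL4, a secreted inhibitor of lipoprotein lipase, measured 3.04 ± 0.308 CPM in DDX18 and 2.35 ± 0.303 CPM in plvx libraries, and KDM4C, a histone demethylase, 10.8 ± 0.670 CPM in DDX18 and 9.22 ± 0.949 CPM in plvx libraries. Among the most counted were DDIT4, an inhibitor of mTORC1 signalling, at 264.9 ± 23.7 CPM in DDX18 and 256.4 ± 28.3 CPM in plvx libraries, and PLOD1, a collagen lysyl hydroxylase, at 205.7 ± 8.25 CPM in DDX18 and 202.8 ± 21.7 CPM in plvx libraries. EPO had at most 1 count and COX4I2 had 0.

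**Figure D3:**
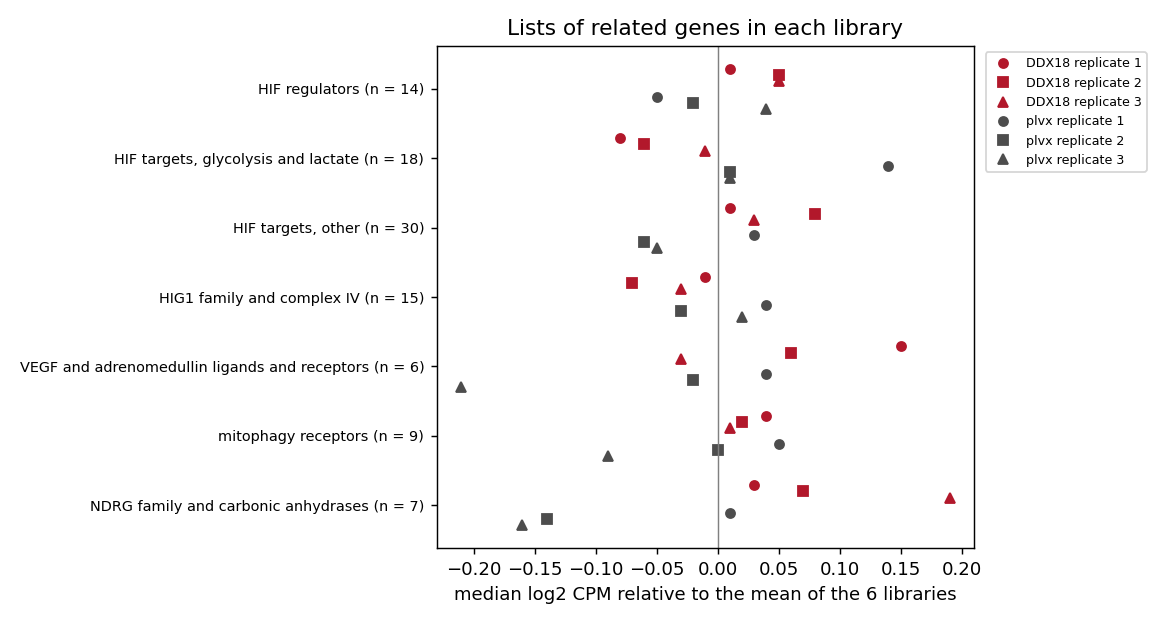
For each list, a point gives the median over its tested genes of log2 CPM relative to the mean of the 6 libraries, with DDX18 libraries in red above plvx libraries in grey. The glucose and lactate targets lie at -0.08 to -0.01 in the DDX18 and 0.01 to 0.14 in the plvx libraries, the NDRG relatives and carbonic anhydrases at 0.03 to 0.19 in the DDX18 and -0.16 to 0.01 in the plvx libraries, and in the other 5 related lists the groups overlap.

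The line carries ligands of the VEGF and adrenomedullin systems but hardly their receptors. KDR, CALCRL, RAMP2 and RAMP3 had 0 counts in all 6 libraries, FLT1 and RAMP1 at most 1, and FLT4 at most 2. The coreceptors of VEGF were present, NRP1 at 8.67 ± 1.09 CPM in DDX18 and 8.97 ± 1.45 CPM in plvx libraries, and NRP2 at 15.7 ± 1.89 CPM in DDX18 and 14.4 ± 0.478 CPM in plvx libraries. VEGFB, a further ligand, measured 137.6 ± 6.58 CPM in DDX18 and 135.1 ± 14.5 CPM in plvx libraries. PGF, placental growth factor, was scarce, at 3.04, 2.18 and 3.83 CPM in DDX18 replicates 1, 2 and 3, against 1.80, 1.54 and 1.23 CPM in plvx replicates 1, 2 and 3. Its groups did not overlap, and its log2 fold change of 0.98 did not pass (adjusted p = 0.8). None of the 6 tested genes of this list of 14 passed (edgeR), where 0.0528% of all genes tested did. PGF was the 1 with an unadjusted p under 0.05 (16.7%, against 5.69% of all genes tested).

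Mitophagy receptors other than BNIP3 were divided. Of 9 tested, BNIP3L among them, 5 had a fold change above 0 and 4 below. None passed (edgeR), where 0.0528% of all genes tested did, and 1 had an unadjusted p under 0.05 (11.1%, against 5.69% of all genes tested). CALCOCO2, an autophagy receptor for ubiquitin-coated cargo, measured 32.1 ± 3.11 CPM in DDX18 and 24.1 ± 3.41 CPM in plvx libraries (adjusted p = 0.828). BCL2L13, a mitochondrial receptor for LC3, measured 74.8 ± 12.1 CPM in DDX18 and 89.7 ± 2.37 CPM in plvx libraries (adjusted p = 0.86). The most counted was SQSTM1, the p62 autophagy adaptor, at 1066 ± 12.3 CPM in DDX18 and 984.6 ± 48.3 CPM in plvx libraries. FKBP8, a mitochondrial immunophilin, followed at 365.2 ± 19.8 CPM in DDX18 and 365.9 ± 47.1 CPM in plvx libraries. Groups did not overlap in 2 genes with DDX18 higher, CALCOCO2 and SQSTM1, and in 2 with DDX18 lower, BCL2L13 and BNIP3L. Over all genes tested the shares were 5.83% higher and 5.71% lower.

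Few relatives of NDRG1 and CA9 were expressed, and 7 of 17 could be tested. None passed (edgeR), where 0.0528% of all genes tested did, and 2 had an unadjusted p under 0.05 (28.6%, against 5.69% of all genes tested). Of the fold changes 5 were above 0 and 2 below. The list's median level relative to the mean of the 6 libraries was 0.03, 0.07 and 0.19 on the log2 scale in DDX18 replicates 1, 2 and 3, against 0.01, -0.14 and -0.16 in plvx replicates 1, 2 and 3. These did not overlap, with the nearest libraries at 0.03 and 0.01. NDRG4 measured 2.91, 3.06 and 3.21 CPM in DDX18 replicates 1, 2 and 3, against 2.06, 1.11 and 1.36 CPM in plvx replicates 1, 2 and 3, a log2 fold change of 1.02 that did not pass (adjusted p = 0.765). CA5B, a mitochondrial carbonic anhydrase, measured 14.2 ± 0.659 CPM in DDX18 and 11.6 ± 0.642 CPM in plvx libraries (adjusted p = 0.841). CA12, the membrane-bound relative of CA9, measured 14.2 ± 1.28 CPM in DDX18 and 11.7 ± 3.96 CPM in plvx libraries, and CA11 5.45 ± 0.372 CPM in DDX18 and 5.08 ± 0.348 CPM in plvx libraries. NDRG3 measured 104.8 ± 4.29 CPM in DDX18 and 105.3 ± 16.7 CPM in plvx libraries.

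To compare levels between genes, counts were divided by merged exon length and expressed as TPM (transcripts per 1000000 transcripts). HIGD2A led both groups, at 515 ± 48.7 TPM in DDX18 and 488 ± 10.9 TPM in plvx libraries, above 98.2% of the tested genes in plvx. HIGD1A followed in the plvx libraries and came after NDRG1 in the DDX18 libraries, at 56.6 ± 8.93 TPM in DDX18 and 139 ± 4.40 TPM in plvx libraries. In the DDX18 libraries its range, 46.3 to 61.8 TPM, overlapped that of NDRG1, 58.7 to 73.2 TPM. NDRG1, HIF1A, EGLN1 and BNIP3 followed in this order in the plvx libraries, at 66.7, 39.0, 31.6 and 25.7 TPM, with no overlap between neighbours.

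The lower part of the order differed between the groups only by EPAS1. In the plvx libraries ADM, CA9 and EPAS1, at 19.5, 18.8 and 17.4 TPM, overlapped and have no order among them. In the DDX18 libraries EPAS1, at 24.2 ± 1.59 TPM, overlapped BNIP3 at 26.9 ± 1.39 TPM and lay above ADM and CA9, at 17.5 ± 2.04 TPM and 16.0 ± 3.76 TPM. VEGFA was lowest, at 9.04 ± 0.736 TPM in DDX18 and 7.84 ± 0.711 TPM in plvx libraries. The deposited FPKM rest on another length per gene, for HIGD1A 4173 bases against 1675 here, and put HIF1A, EGLN1, ADM, CA9 and EPAS1 at other ranks in the plvx libraries. In the DDX18 libraries they put HIGD1A, at a mean of 8.1 FPKM, below EGLN1 at 11.3 FPKM. There VEGFA, at 1.88 FPKM, was level with ADM at 1.89 FPKM.

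**Figure D4:**
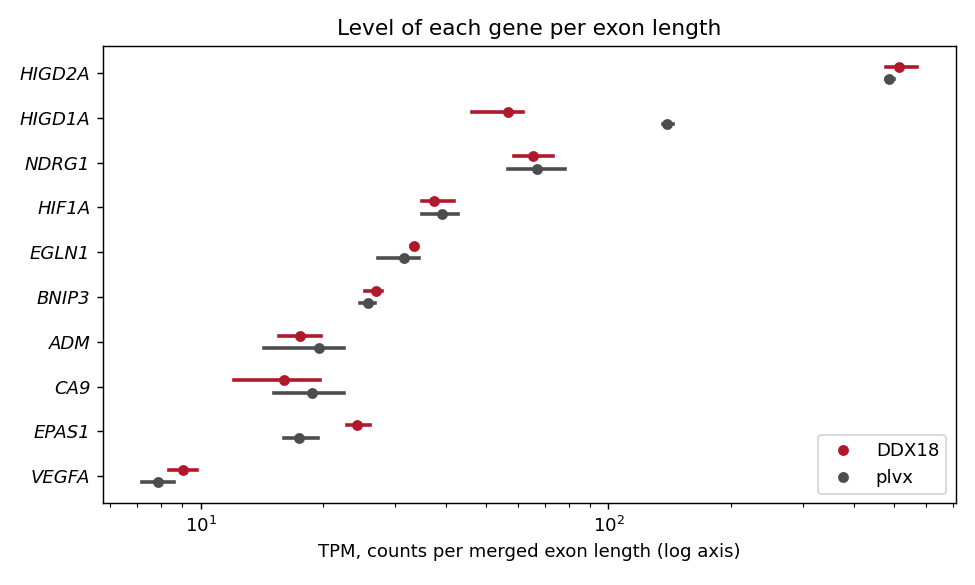
Levels per exon length in TPM on a log axis, with points for the mean and lines from the lowest to the highest of 3 libraries, DDX18 in red above plvx in grey. HIGD2A lies highest, at 515 TPM in DDX18 and 488 TPM in plvx libraries, and VEGFA lowest, at 9.04 TPM in DDX18 and 7.84 TPM in plvx libraries.

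The genes whose log2 CPM followed HIGD1A most closely over the 6 libraries, among 11100 with a mean of at least 5 CPM, were RPL21P75, KLHL42, C11orf58, EPHX1 and ALDH7A1P1, with Pearson r of 0.98 to 0.99. These correlations describe libraries of both groups together, and a gene that merely separates the groups scores high. C11orf58 differed most, at 54.8, 71.9 and 62.5 CPM in DDX18 replicates 1, 2 and 3, against 102.7, 101.4 and 104.7 CPM in plvx replicates 1, 2 and 3. It had its lowest library in DDX18 replicate 1 and a tight plvx group, as HIGD1A did, a likeness that its choice by r favours. EPHX1, a detoxifying epoxide hydrolase, measured 187.0 ± 3.59 CPM in DDX18 and 202.3 ± 2.18 CPM in plvx libraries, and KLHL42, a ubiquitin ligase adaptor, 13.5 ± 0.229 CPM in DDX18 and 15.5 ± 0.184 CPM in plvx libraries. RPL21P75 and ALDH7A1P1 are pseudogenes whose counts may hold reads of their parent genes. An r of at least 0.9 was reached by 98 genes. Of the other 9 genes none came near, CA9 being closest at 0.57 and HIF1A next at 0.43, while EPAS1 ran opposite to HIGD1A at -0.93.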

How the data were processed

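Libraries of Hs766T cells, 3 DDX18 and 3 plvx, were sequenced; the labels' protocols name a SMARTER mRNA-seq preparation kit. The authors deposited raw counts per gene and FPKM for 58302 genes, per the file headers. Aligner, counter and use of strand: not given in the sources used here. The submitters' processing notes name GRCm38 and mm10, but the table holds human identifiers, of which 58039 occur in GENCODE 29, 97.6% with its GRCh38 start and end. The 10 genes and all lists were chosen with earlier results of these data known.

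Counts were filtered (filterByExpr, 15144 genes), scaled by TMM and tested with edgeR 4.0.16 (quasi-likelihood, R 4.3.3), no covariate, Benjamini-Hochberg threshold 0.05. The step was tested on simulated data. The text names the 10 genes, DDX18, per list the 4 smallest p and 2 highest levels, the 5 genes most correlated with HIGD1A, overlapping genes and markers. The values of 1 listed gene are not reported here. Untested list members and pseudogenes were named after their values were seen. Replicate libraries differed by more than counting noise (chi-square over degrees of freedom 12.6 to 20.3). Alternatives were other scalings and filters, DESeq2 1.42.0, limma 3.58.1 (voom, or log2(FPKM + 1) and log2(FPKM + 0.1)), a replicate block, and leaving out each library.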

Additional observations from a re-analysis of the deposited data

How the results depend on the processing

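The fold change of HIGD1A kept its direction in all 16 alternatives (log2 -1.39 to -1.19), and its adjusted p ran from 1.08e-16 with DESeq2 to 0.146. It missed the threshold with no expression filter (log2 fold change -1.32, adjusted p = 0.1) and with the replicate block (-1.33, adjusted p = 0.146). Leaving out single libraries gave -1.39 to -1.19, with an adjusted p of 0.0683 and 0.0576 when DDX18 replicate 2 or 3 was absent, and of 0.0609, 0.125 and 0.0781 when plvx replicate 1, 2 or 3 was. Genes past the threshold numbered 8, but 4 with no expression filter, 39 with DESeq2, 1 with the replicate block, and 3 (without plvx replicate 2) to 14 (without plvx replicate 1) when a library was left out. The causes were not tested. Same-numbered libraries did not deviate together (correlations of their deviations from the group means -0.04, 0.02 and -0.09). With 3 libraries a group this cannot settle whether libraries of a number shared a culture or preparation, which is not given.

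EPAS1 stayed above 0 in all 16 alternatives (0.39 to 0.53) and passed the threshold in none (adjusted p 0.0733 to 0.999). Directions turned, near 0, when a library was left out, for HIGD2A (-0.0245 to 0.0954), EGLN1 (-0.0334 to 0.105) and NDRG1 (-0.173 to 0.0683). The 7 lists had 0 genes past the threshold under every alternative, DESeq2 and limma-voom included. In the main fit 0.0528% of all genes tested passed, so lists of this size could hardly hold a call, and nothing is read from the 0. With 3 libraries a group, the spread between them was above that of counting alone for CA9, the gene of the 10 with the fewest counts, at 24.4% against 8.1% in DDX18 and 20.7% against 7.43% in plvx libraries.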

Other observations

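BNIP3P1, a transcribed pseudogene of BNIP3, had 122, 130 and 160 counts in DDX18 replicates 1, 2 and 3, against 154, 143 and 131 counts in plvx replicates 1, 2 and 3, so the groups overlapped. Of the 44 BNIP3 pseudogenes in the table, 8 had a count in any library.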
